A study of Rattus norvegicus with 4 samples.

Results

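Endothelin-converting enzyme Ece1, the vasopressin receptor Avpr1a, the prostaglandin E2 receptors Ptger1 and Ptger4 and the angiotensin receptor-associated protein Agtrap were measured by 8 probes of a rat cDNA array. They were chosen by gene symbol: Ece1, Avpr1a or Ptger1, or any symbol that begins with Edn, Ptger, Avpr or Agtr. These are 5 of the 958 genes that the array names through a single symbol. No named probe had a symbol that begins with Edn, the endothelins and their receptors, and none named an angiotensin receptor, since Agtrap entered by its spelling. Spots without a symbol could not be searched. Ece1, Avpr1a and Ptger1 were singled out because of their ratios on these same arrays, so the ratios of all 8 probes are given as a description, with no test.

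The 2 groups were livers of male Sprague-Dawley rats of 250 to 300 g, taken 12 h after surgery under ether. In the ligated group the common bile duct was tied, and in the sham group it was exposed but not tied, so both groups had undergone laparotomy. RNA from the right lateral lobes of 3 rats was pooled in each group, and ligated and sham RNA were hybridised together to each of 4 slides, with ligation RNA in Cy5 on arrays 1 and 3 and in Cy3 on arrays 2 and 4. The arrays may be repeat hybridisations of 1 pair of pools, so their spread covers the measurement and not the animals, and their number limits the precision. Ratios hold no level, so the tissue could not be checked against liver markers, and with whole liver RNA fewer cells of a type and less RNA per cell cannot be told apart.

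Endothelins are made as inactive precursors that Ece1, a zinc metalloprotease of the cell membrane and its vesicles, cuts into the active peptide. In the liver, endothelin contracts stellate cells and raises sinusoidal resistance, and Ece1 is prominent in endothelial cells. Avpr1a is the vasopressin receptor of the hepatocyte. It acts through Gq, phospholipase C and calcium to stimulate glycogen breakdown. Prostaglandin E2 acts through a family of receptors, of which Ptger1 (EP1) raises calcium and Ptger4 (EP4) raises cyclic AMP. Agtrap binds the type 1 angiotensin receptor and favours its internalisation.

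The upstream windows of the 3 genes that define the set are shown so that their start regions can be set side by side. Spots of all 3 genes were low, but the genes were singled out by these ratios. Ptger1 spot 552 was near the array median (-0.04, centred log2). Any bearing of the windows on the ratios was not tested. The windows are from RefSeq on build GRCr8, 250 bases up to the annotated start, 5′ to 3′ on the gene's strand. Capitals mark matches to 5 motifs on either strand. These are the GC box GGGCGG, the CCAAT box CCAAT, the TATA box TATAAA, the AP-1 site TGANTCA and the nuclear receptor half-site AGGTCA.
Ece1 (chr5:155360781-155361030, plus strand): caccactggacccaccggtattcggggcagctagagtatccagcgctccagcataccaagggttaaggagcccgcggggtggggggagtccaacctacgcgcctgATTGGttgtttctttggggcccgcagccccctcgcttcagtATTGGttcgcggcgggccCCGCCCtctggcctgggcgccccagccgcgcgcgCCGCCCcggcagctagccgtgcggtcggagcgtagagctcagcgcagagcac
Avpr1a (chr7:59999493-59999742, plus strand): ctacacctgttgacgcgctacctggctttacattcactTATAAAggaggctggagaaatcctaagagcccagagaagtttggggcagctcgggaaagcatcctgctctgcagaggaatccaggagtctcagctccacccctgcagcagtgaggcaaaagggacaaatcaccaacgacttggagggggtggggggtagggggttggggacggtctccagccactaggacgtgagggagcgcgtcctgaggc
Ptger1 (chr19:41378285-41378534, minus strand): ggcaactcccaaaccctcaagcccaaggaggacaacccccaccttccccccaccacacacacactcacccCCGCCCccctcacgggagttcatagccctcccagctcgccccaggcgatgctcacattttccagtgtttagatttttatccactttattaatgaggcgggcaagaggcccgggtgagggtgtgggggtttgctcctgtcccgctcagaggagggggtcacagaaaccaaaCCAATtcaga

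The Ece1 window held 2 GC boxes and 2 CCAAT boxes, and 69.2% of its bases were G or C. The Avpr1a window held 1 TATA box, which began 212 bases before the start, and had 58.0% G or C. The Ptger1 window held 1 GC box and 1 CCAAT box at 58.4% G or C. No match overlapped another. Over all 33469 windows of the same length, 30.5% held a GC box, 34.0% a CCAAT box, 12.9% a TATA box, 6.34% an AP-1 site and 14.1% a half-site, and the median G or C content was 51.2%. The 3 windows had no letter match to the AP-1 site or the half-site, and no motif was found in all 3.

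Ece1 was lower in the ligated pool on each array. Its deposited log2 ratios at spot 606 were -1.39, -1.68, -1.50 and -1.66 on arrays 1 to 4. Their mean was -1.56 ± 0.14 (SD, 4 arrays), and they were only slightly lower where the ligation RNA was in Cy3. The arrays as a whole did not share that evenness, for their medians over all spots were -1.26, 0.43, -0.96 and 0.26. After each array was centred on its median, Ece1 was at -0.13, -2.11, -0.55 and -1.92, far lower on the arrays with ligation in Cy3 than on those with ligation in Cy5, and the orientations did not overlap. The fitted mean, with a dye term for each probe, was -1.18 ± 0.09 (SE, 4 arrays), a ratio 2.26-fold lower in the ligated pool. The deposited mean without centring gave 2.94-fold. The arrays with ligation in Cy5 alone averaged -0.34 (centred) and those with ligation in Cy3 alone -2.01.

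These directions take each ratio to be ligated over sham whichever dye was used. The order of the channels in the labels makes this likely, but no source states it. Arrays of opposite orientation correlated at Pearson r of -0.45, -0.35, -0.36 and -0.28 across spots, which are not independent replicates, and arrays of the same orientation at 0.93 and 0.94. Read as Cy5 over Cy3 with centring, Ece1 would be at 0.84, Avpr1a at 0.49 and the 3 Ptger1 spots at 0.64, 0.81 and 0.86, all higher after ligation. Read that way without centring, Ece1 would be at 0.11 and Avpr1a at -0.24. Folds also take the logarithms as base 2.

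**Figure D1:**
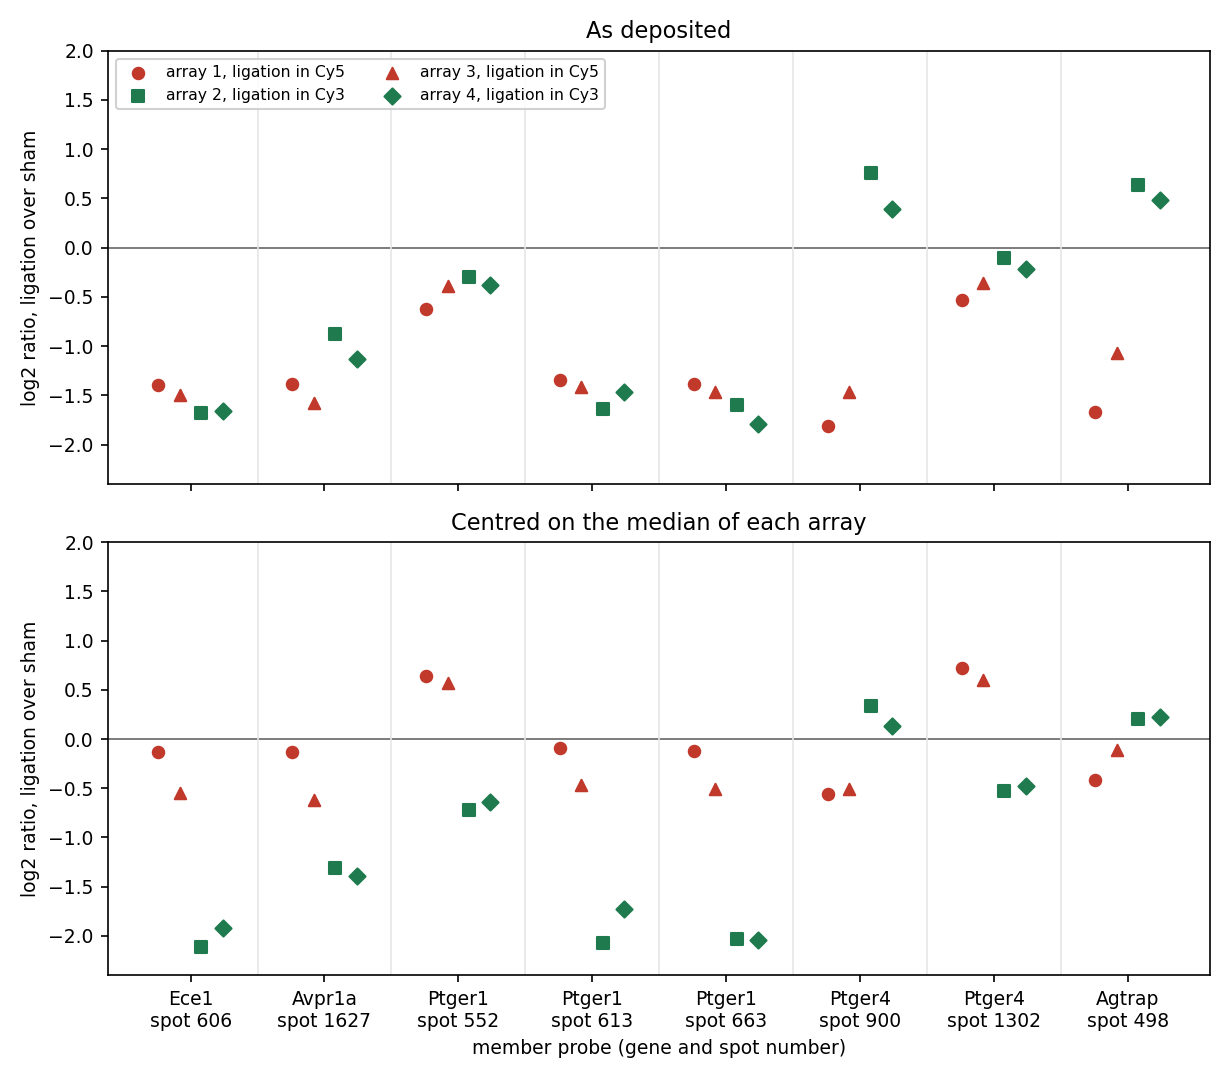
Log2 ratio of each of the 8 member probes (x axis, gene and spot) on each of the 4 arrays (red, ligation in Cy5; green, ligation in Cy3), as deposited (top) and after centring each array on its median (bottom). As deposited, Ece1 and Ptger1 spots 613 and 663 lie between -1.79 and -1.35 on every array, and after centring their green points lie between -2.11 and -1.72.

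Avpr1a was also below 0 on each array. Spot 1627 had deposited log2 ratios of -1.39, -0.88, -1.58 and -1.13 on arrays 1 to 4. Unlike Ece1, it was lower as deposited where the ligation RNA was in Cy5, and the orientations did not overlap. Centred, it was at -0.13, -1.31, -0.62 and -1.39, now lower where ligation was in Cy3. Its fitted mean was -0.86 ± 0.09 (SE, 4 arrays), 1.82-fold lower in the ligated pool, and 2.37-fold without centring. The centred means by orientation were -0.38 (Cy5) and -1.35 (Cy3).

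Ptger1 gave 2 answers. Spots 613 and 663 carry the same clone, in the same print block as counted from spot order, and both were low. Spot 613 had deposited log2 ratios of -1.35, -1.64, -1.42 and -1.46 on arrays 1 to 4, and spot 663 had -1.38, -1.60, -1.47 and -1.79. The 2 spots differed by 0.05 or less on arrays 1 to 3 and by 0.32 on array 4. Centred, spot 613 was at -0.09, -2.07, -0.46 and -1.72, and spot 663 at -0.12, -2.03, -0.51 and -2.05. Their fitted means were -1.09 ± 0.09 and -1.18 ± 0.09 (SE, 4 arrays), 2.12-fold and 2.26-fold lower in the ligated pool.

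Spot 552, from another clone assigned to Ptger1, was close to the middle of the array. Its deposited log2 ratios were -0.62, -0.30, -0.39 and -0.38 on arrays 1 to 4, and centred they were 0.64, -0.72, 0.57 and -0.64. It was thus above the array median where ligation was in Cy5 and below it where ligation was in Cy3, and its fitted mean was -0.04 ± 0.08 (SE, 4 arrays). Spot 552 was higher than spot 613 by 0.73, 1.34, 1.03 and 1.08 on arrays 1 to 4, by 1.05 on average, and higher than spot 663 by 1.14 on average. Among all 678 pairs of spots that share a gene symbol but come from different clones, the median absolute difference was 0.13. Of these pairs, 20 differed by at least as much as spots 552 and 613, counting that pair itself and spots 552 and 663. The 21 pairs of spots from 1 clone, with spots 613 and 663 among them, had a median absolute difference of 0.08. However, 1 of these 21 pairs differed by 1.28, farther than spots 552 and 613. The clones are assigned to Ptger1 by the platform's annotation alone, and their sequences were not used here, so the average of the 3 spots is not given as a value of the gene.

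The 2 Ptger4 spots, from different clones, were near the array median in their fitted means but differed in how they followed the dye. Spot 900 had deposited log2 ratios of -1.82, 0.76, -1.46 and 0.39 on arrays 1 to 4. Spot 1302 had -0.54, -0.10, -0.36 and -0.22. Spot 900 thus swung with the array medians and spot 1302 did not. Centred, spot 900 was at -0.56, 0.33, -0.51 and 0.13, and spot 1302 at 0.72, -0.53, 0.60 and -0.48, so each changed sign with the dye, in opposite ways. The fitted means were -0.15 ± 0.08 and 0.08 ± 0.08 (SE, 4 arrays), the latter -0.31 without centring.

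Agtrap, spot 498, also swung with the dye. Its deposited log2 ratios were -1.67, 0.63, -1.06 and 0.49 on arrays 1 to 4, and centred they were -0.41, 0.21, -0.11 and 0.23. The fitted mean was -0.02 ± 0.08 (SE, 4 arrays), close to the array median, and it was 0.01 when the arrays were centred on the named probes.

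Of the 8 member probes, 4 were below 0 on all 4 centred arrays: Ece1, Avpr1a and Ptger1 spots 613 and 663. Over the 1648 probes tested, 7.10% were below 0 on all 4, 5.04% above 0 on all 4 and 12.1% either, and 3.76% were so and at least 1.5-fold lower. Because these ratios chose the members, the count is not read against that share. As deposited, 6 of the 8 members and 31.1% of all probes were below 0 on all 4 arrays, and these are not read against each other either. The Cy5-over-Cy3 reading turns the sign of the arrays with ligation in Cy3, so no probe can keep 1 sign in both readings. In it Ptger1 spot 552 and Ptger4 spot 1302 were above 0 on all centred arrays, and Ptger4 spot 900 and Agtrap below 0. The share of all probes was not counted for that reading, so this is not read as a trait of the members.

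By fitted mean, counted from the lowest of the 1648 probes, Ptger1 spot 663 stood at rank 19, Ece1 at 20, Ptger1 spot 613 at 23 and Avpr1a at 46. The first 3 differed by at most 0.09, about 1 SE, so their order carries no weight. The remaining members stood at 388 (Ptger4 spot 900), 686 (Ptger1 spot 552), 768 (Agtrap) and 1198 (Ptger4 spot 1302).

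The dye term is how far the ratio was above its fitted mean with ligation in Cy5, and below it with ligation in Cy3. It was not itself used to choose the members, but over the whole array low ligation values were more frequent at high dye terms. In centred values it was 0.84 for Ece1, 0.81 and 0.86 for Ptger1 spots 613 and 663, 0.64 for spot 552, 0.58 for Ptger4 spot 1302 and 0.49 for Avpr1a. It was -0.24 for Agtrap and -0.38 for Ptger4 spot 900. As deposited it was 0.11 for Ece1, 0.08 and 0.13 for Ptger1 spots 613 and 663, and -0.08 for spot 552. Avpr1a was then at -0.24, Ptger4 spots 1302 and 900 at -0.14 and -1.11, and Agtrap at -0.96. Centring moved the dye term of every probe by the same amount, which leaves their order unchanged. The size of ligation values over the whole array widened with this term: their SD was 0.07 among the 412 probes with the lowest dye terms and 0.53 among the 412 with the highest, which include 4 of the 8 members. At least 1.5-fold lower were 0% of the former and 15.5% of the latter, so a choice by low ratios favours high dye terms. The place of the members among the dye terms is thus a description only. What sets the dye term was not tested, since signal strength was not used here.

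**Figure D2:**
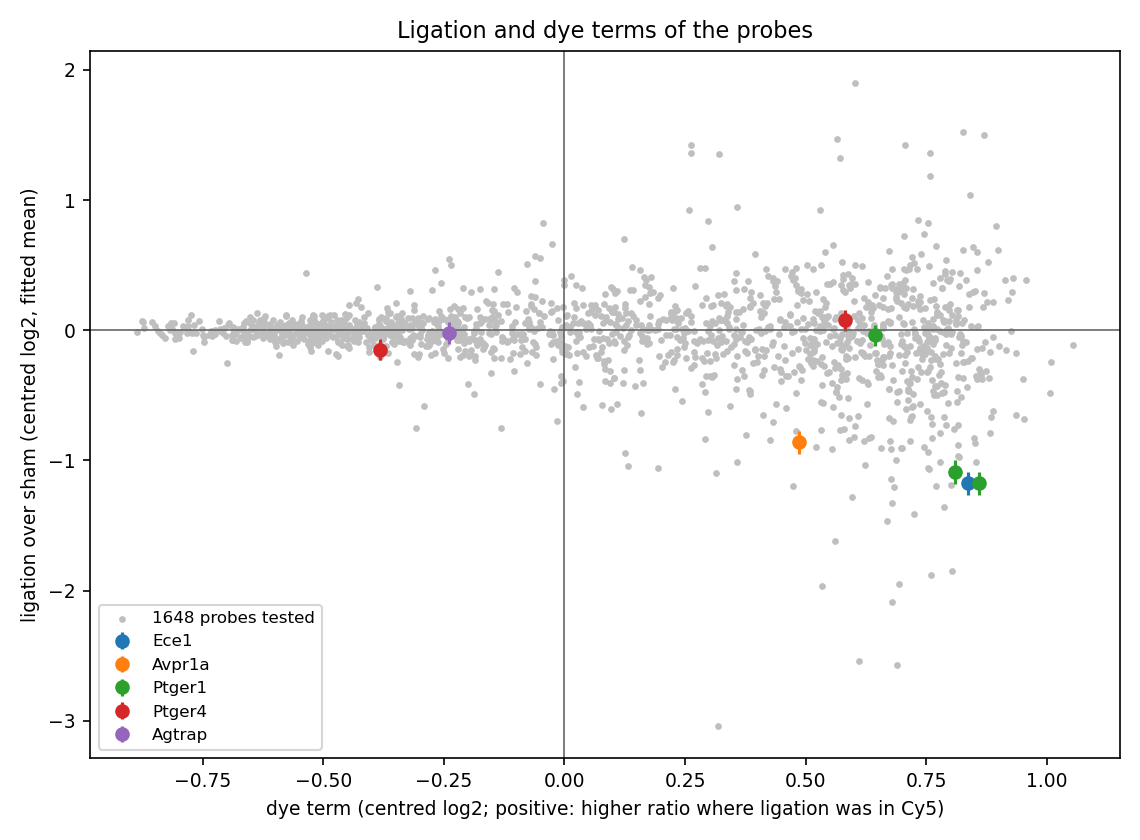
Fitted ligation-over-sham value (y axis, centred log2; bars, SE) against the dye term (x axis, centred log2) for the 1648 probes tested (grey) and the 8 member probes (colours). Ece1 and Ptger1 spots 613 and 663 form a tight group at a dye term of 0.81 to 0.86 and a ligation value of -1.18 to -1.09, and the cloud of all probes narrows towards 0 at low dye terms.

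The patterns most like each member were ranked by the root-mean-square difference over the 4 centred arrays, among probes of other single genes. For Ece1 these were Ptger1 spot 663 (0.08), the cytochrome P450 Cyp2b21 (0.10) and Ptger1 spot 613 (0.11). For Avpr1a they were the growth factor receptor Fgfr3 (0.11), the outer mitochondrial membrane cytochrome b5 Cyb5b (0.14) and the anaphase-promoting complex subunit Cdc23 (0.14). Ptger1 spot 613 was nearest to the transcription factor Wt1 (0.07), Ece1 (0.11) and the microsomal cytochrome b5 Cyb5a (0.12), and spot 663 to Ece1 (0.08), Cyp2b21 (0.11) and Wt1 (0.19). Spot 552 was nearest to the lactate carrier Slc16a1 (0.04), the transporter Abcb6 (0.05) and the oligosaccharyltransferase subunit Dad1 (0.07). The nearest probe to Ece1 was a Ptger1 spot, and the nearest to Ptger1 spot 663 was Ece1. Both genes were singled out because of their ratios on these same arrays, so their closeness is a description only. Ece1 and both low Ptger1 spots lay in print block 6 of 16, where the median of 103 probes was -0.06, and centred within print blocks they were at -1.08, -0.99 and -1.08.

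Genes of vasoactive signalling other than the members mostly did not pass the test. Of 59 probes of 44 genes in 6 lists, 7 were higher and 5 lower (limma, Benjamini-Hochberg over all 1648 probes, threshold 0.05), and 47 did not pass. Over all probes, 11.8% were called higher and 16.1% lower, 27.9% in all. The median of the 59 was 0.01 (log2), beside -0.01 for all probes. The calls need the dye term: without it limma called 0 of the 59 and 1 of 1648. At an unadjusted p under 0.05 it then gave 2 of the 59, both lower, beside 28 higher and 76 lower of 1648. The calls also need the centring in the higher direction, as without it limma called 0 higher, also at an unadjusted p under 0.05, and 48 lower. Over all 1648 probes limma then called 31 higher and 1330 lower, and their median was -0.39. Without array 2, 3 of the 59 were called higher, beside 159 of 1648, and without array 4, 2, beside 133 of 1648.

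In the list of other vasoactive peptides and amines, with their receptors, receptor partners and a peptidase, 3 of 16 probes were lower, 3 higher and 10 not past the test. The thrombin receptor F2r, which like Avpr1a couples to Gq, was at -0.95, -0.12, -1.16 and -0.77 on arrays 1 to 4 (centred log2), below 0 on each. As deposited, F2r was at -2.21, 0.31, -2.12 and -0.50, above 0 on array 2. Its centred mean was -0.75 ± 0.10 (SE, 4 arrays, limma adjusted p = 5.90e-05), and -0.31 in the Cy5-over-Cy3 reading. The alpha-1B adrenergic receptor Adra1b, the hepatocyte's Gq-coupled receptor for catecholamines, was at -0.29, -0.23, -0.81 and -1.03, also below 0 on each. As deposited, Adra1b was at -1.55, 0.19, -1.77 and -0.77, also above 0 on array 2. Its centred mean was -0.59 ± 0.12 (limma adjusted p = 0.00168), -0.39 without array 4, and 0.04 in the other reading of the ratio.

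Ramp1, a partner protein of the receptor for calcitonin gene-related peptide, was at 0.25, -1.46, 0.01 and -1.28 (centred log2). Its mean was -0.62 ± 0.08 (limma adjusted p = 5.10e-05), and 0.75 in the other reading. In centred values it was below 0 only on the arrays with ligation in Cy3. As deposited, Ramp1 lay between -1.03 and -0.94 on every array, whichever dye carried the ligation RNA. Calcrl, the receptor that Ramp1 joins, had a mean of -0.02 ± 0.08 and did not pass. The peptidase Dpp4, which cleaves several vasoactive peptides, was higher at spot 1328 (0.31 ± 0.08, limma adjusted p = 0.01; -0.07 without centring) and at spot 220 (0.29 ± 0.08, limma adjusted p = 0.012; -0.10 without centring). The call of spot 1328 was lost without array 4 (0.27, limma adjusted p = 0.119), and that of spot 220 without array 2 (0.0849) or array 4 (0.0879). The adenosine receptor Adora2b was called higher at 1 of its 3 spots, spot 781 (0.24 ± 0.08, limma adjusted p = 0.0439; -0.14 without centring and -0.43 in the other reading), and not without array 2 (0.424), 3 (0.0823) or 4 (0.0641) or with centring within print blocks (0.268).

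Of 12 probes of prostanoid and eicosanoid genes, 1 was higher, 1 lower and 10 did not pass. Ephx2, the soluble epoxide hydrolase that inactivates vasodilator epoxides of arachidonic acid, was at 1.27, -0.15, 0.95 and -0.10 on arrays 1 to 4 (centred log2), with a mean of 0.49 ± 0.08 (limma adjusted p = 4.36e-04) and 0.11 without centring (adjusted p = 0.236). Cyp4f6, a fatty acid hydroxylase, was lower at 1 of 4 spots, spot 436 (-0.36 ± 0.09, limma adjusted p = 0.01), and the call was lost without array 3 (-0.22, adjusted p = 0.0675) and turned to 0.72 in the other reading. Its probes can bind related P450 transcripts. The lipoxygenase Alox15 was at 0.13 ± 0.08 and did not pass, and neither did the phospholipase Pla2g1b, at 0.00 (-0.0050) and 0.03 at its 2 spots. No named probe of this list was a cyclooxygenase.

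Signal transducers downstream of these receptors included 25 probes, of which 3 were higher, 1 lower and 21 not past the test. The protein kinase A subunit Prkar2a was at -0.13, -0.39, -0.50 and -0.61 on arrays 1 to 4 (centred log2), below 0 on each. As deposited, Prkar2a was at -1.38, 0.03, -1.46 and -0.35, above 0 on array 2. Its centred mean was -0.41 ± 0.09 (limma adjusted p = 0.00275), and 0.09 in the other reading. Calm2, 1 of the genes for the calcium sensor calmodulin, was at 0.36 ± 0.08 (limma adjusted p = 0.00456) but at -0.03 without centring. The subunit Prkar1a was at 0.27 ± 0.08 (limma adjusted p = 0.0233), but -0.12 without centring and not called without array 1 (adjusted p = 0.0756), array 2 (0.0766) or array 4 (0.183), or with quantile normalization (0.0533). The protein kinase C Prkcd was called at 1 of 3 spots, spot 1609 (0.22 ± 0.08, limma adjusted p = 0.049; -0.16 without centring and -0.05 in the other reading), and that call was lost when any 1 array was left out (adjusted p 0.0644 to 0.373) and with centring within print blocks (0.15).

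The inositol trisphosphate receptors Itpr1 and Itpr3, which release calcium after activation of Gq-coupled receptors, did not pass (-0.09 ± 0.08 for Itpr1, and -0.05 ± 0.08 and -0.02 ± 0.08 for the 2 spots of Itpr3). The bradykinin receptor Bdkrb2 was at 0.08 ± 0.08, the cyclic GMP-dependent kinase Prkg1 at -0.01 ± 0.10, the haem oxygenase Hmox2 at -0.05 ± 0.09, the peptidase Rnpep at -0.03 ± 0.08, and the water channel Aqp1 at -0.06 ± 0.09 and 0.02 ± 0.10 at its 2 spots. None of these probes passed the test. Bdkrb2 was the 1 measured gene of 17 on the kinin list, Prkg1 and Hmox2 the 2 of 30 on the nitric oxide and cyclic GMP list, and Rnpep and Aqp1 the 2 of 11 on the vasopressin list.

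**Figure D3:**
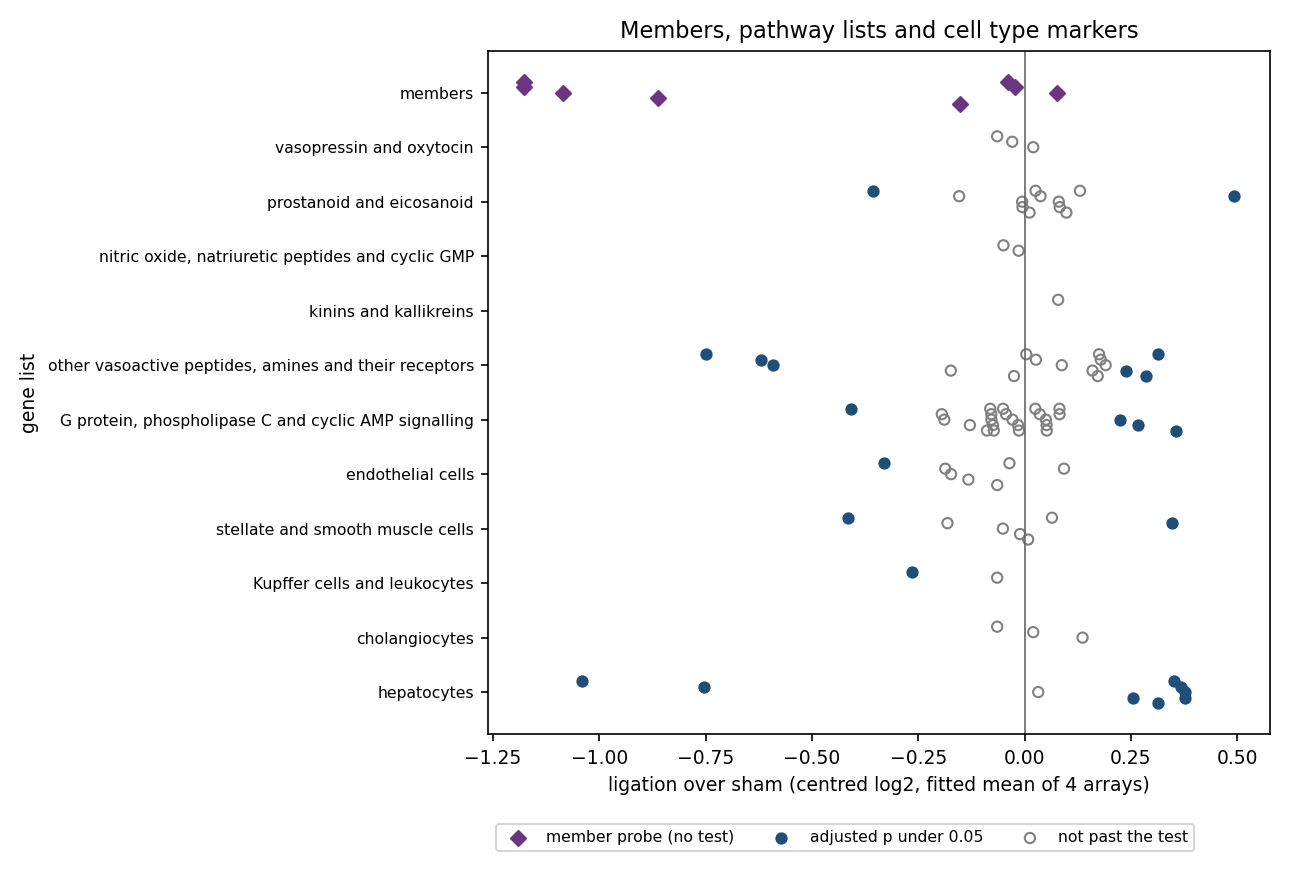
Fitted ligation-over-sham value (x axis, centred log2) of each probe in the members' set (diamonds), the pathway lists and the cell type marker lists (down the y axis). Filled circles passed limma's adjusted p under 0.05. The 4 low member probes lie between -1.18 and -0.86, and the lowest pathway probe, F2r, is at -0.75.

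Markers of endothelial, stellate, immune and bile duct cells lay between -0.42 and 0.35 (centred log2). Of 7 endothelial probes, 1 was lower, Kdr at -0.33 ± 0.10 (limma adjusted p = 0.0184), a call lost without array 1 (0.0785) or 2 (-0.20, adjusted p = 0.314) and in the other reading (-0.15, adjusted p = 0.157). The other 6 did not pass, the highest was Cdh5 at 0.09, and the median of the 7 was -0.13. Of 7 stellate and smooth muscle probes, 1 of the 2 spots of Col1a1 was lower (-0.42 ± 0.08, limma adjusted p = 9.92e-04; 0.28 in the other reading) and Timp1 higher (0.35 ± 0.08, limma adjusted p = 0.00608; -0.03 without centring, -0.0005 in the other reading, and not called without array 4, 0.0547). Of 2 leukocyte probes, Cd53 was lower (-0.27 ± 0.08, limma adjusted p = 0.0239, lost without array 2, 3 or 4, and 0.27 in the other reading) and Fcgr2b was at -0.06 ± 0.08. None of the 3 cholangiocyte probes passed (-0.06 to 0.14, lowest Aqp1 and highest Spp1). Of 9 hepatocyte probes, 6 were higher, at most 0.38 (Apoa1), and 2 lower, both of Cyp7a1, the rate-limiting enzyme of bile acid synthesis (-1.04 ± 0.09 and -0.75 ± 0.11; 0.13 and -0.13 in the other reading). Without centring none of the 6 was called, and their values lay between -0.13 (Ttr) and -0.0039 (Apoa1). The call of Fgg spot 203 was lost without array 4 (adjusted p = 0.114) and that of Fgg spot 287 without array 1 (0.109), without array 4 (0.21, adjusted p = 0.292) and with quantile normalization (0.062). The call of Ttr was lost without array 1 (0.0911), 2 (0.131) or 4 (0.154), within print blocks (0.152) and with quantile normalization (0.0534). The part of the marker ratios in the ratios of Ece1 and Avpr1a was not tested.

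**Figure D4:**
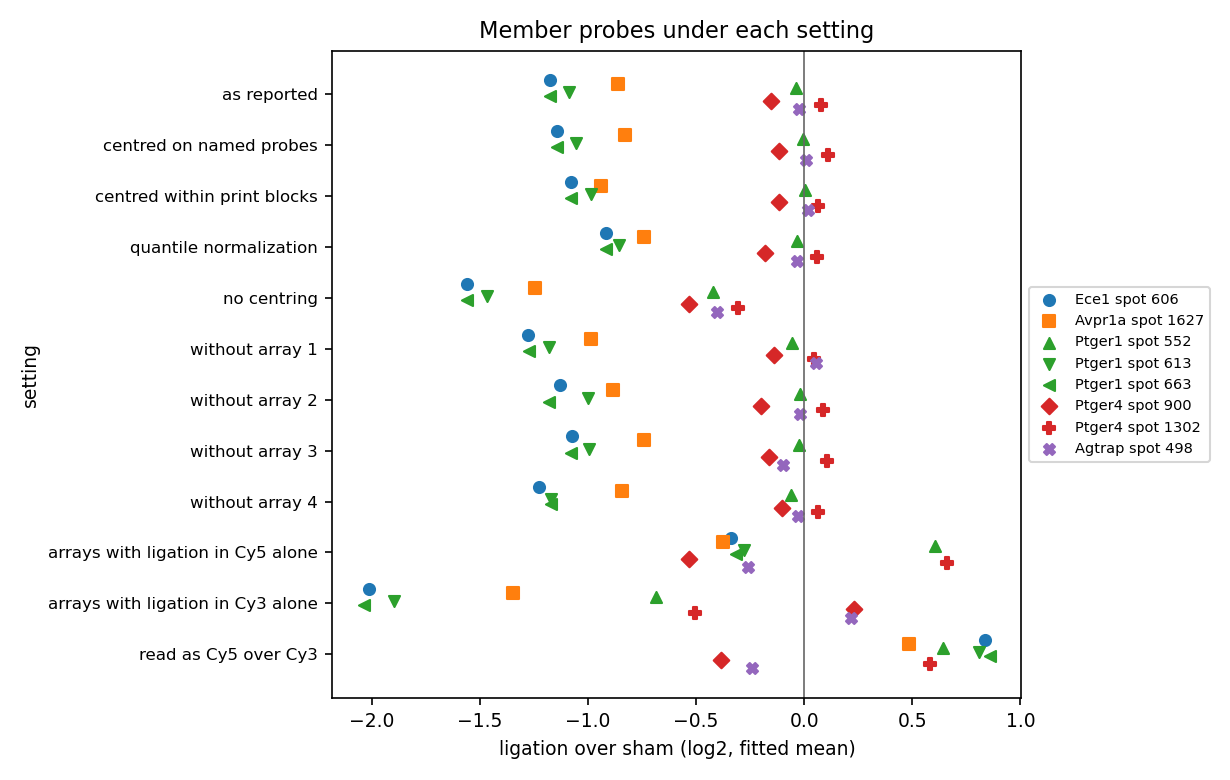
Log2 ligation-over-sham value (x axis) of the 8 member probes as reported and under 11 other settings (y axis). Ece1, Avpr1a and Ptger1 spots 613 and 663 stay below 0 in every setting except the last, where the table is read as Cy5 over Cy3 and they lie between 0.49 and 0.86.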

How the data were processed

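The values are log2 ratios deposited by the authors, 1 per spot and array, for 1936 spots on 4 two-colour arrays. Labelling and hybridisation are described per the labels' protocols. The sources used here name no scanner, background correction, dye normalization, log base or direction, and the base was taken as 2. Deposited values were also set beside the centred ones, a choice made after seeing the data. Symbols came from the platform's annotation (1432 spots with 1 symbol, 19 with several, 485 unnamed), and all 5 member genes matched a RefSeq table of GRCr8 by gene number. The 288 spots at the 18 positions unnamed in each of 16 blocks were taken as controls and left out.

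Each array was centred on its median. Each of 1648 probes was fitted in limma 3.58.1 (R 4.3.3) with a ligation term and a dye term, moderated variances and Benjamini-Hochberg adjustment; calls needed adjusted p under 0.05. SEs are moderated (prior SD 0.168 on 11.7 degrees of freedom, 2 residual). The fit was tested on simulated data. Alternatives changed the reading, centring, normalization, dye term, prior, control spots, averaging of probes and arrays used. The members and gene lists were chosen with earlier results of these data known. Of pathway probes, called ones were named, at most 4 per list by size (further spots of a named gene and other called spots are added), and up to 3 others in alphabetical order where under 3 passed. The marker probes at both ends of each list, and the 3 nearest patterns, were named too; Calcrl, Itpr1, Itpr3, Adora2b and the remaining called markers were added after their values were seen. The lists for endothelin and renin-angiotensin had no named probe beyond the members.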

Additional observations from a re-analysis of the deposited data

Results flagged for a closer look

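Among 67 member and pathway probes, each checked as deposited and centred, 2 had 1 array apart from the other 3. For Prkcd spot 1609, array 4 was at 0.35 (centred log2) and arrays 1 to 3 between 0.18 and 0.19, a gap of 0.916 of the whole range. For Gnas spot 1909, a stimulatory G protein subunit gene, array 1 was at -0.57 as deposited and the others between -0.50 and -0.48, a gap of 0.851. Both pass Dixon's limit for 4 values, which chance passes in about 1 in 20 groups. The 2 flagged among 67 probes are below that rate. None of the 8 member probes had an array apart by this measure.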

How the results depend on the processing

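Read as Cy5 over Cy3, Ece1 was at 0.84, Avpr1a at 0.49 and Ptger1 spots 552, 613 and 663 at 0.64, 0.81 and 0.86. Of the 59 pathway probes 18 were called higher and 34 lower, beside 790 higher and 556 lower of all 1648 probes. Cyp4f6 was then at 0.72, Ramp1 at 0.75, Adra1b at 0.039, Prkar2a at 0.0935 and Prkcd at -0.0457. Without centring the same 5 member spots were at -1.56, -1.24, -0.42, -1.47 and -1.56 and Ptger4 spot 1302 at -0.31. Of the pathway probes 0 were called higher and 48 lower, beside 31 higher and 1330 lower of all 1648 probes. Dpp4 spot 1328 was then at -0.068, Calm2 at -0.0253, Prkar1a at -0.12 and Prkcd at -0.16. With quantile normalization Ece1 and Ptger1 spot 663 were both at -0.92. On arrays with ligation in Cy5 alone the 5 spots were at -0.34, -0.38, 0.60, -0.28 and -0.32, and in Cy3 alone at -2.01, -1.35, -0.68, -1.89 and -2.04, where Ptger4 spot 900 was at 0.23 and spot 1302 at -0.51. Arrays of the same orientation correlated at Pearson r of 0.93 and 0.94, so a sign kept over 2 such arrays is not read as a trait of the members. Without the dye term limma called 0 pathway probes in either direction (2 at an unadjusted p under 0.05). With probes averaged per gene 4 pathway genes were higher, beside 141 of 1174 over the whole array. Leaving out 1 array at a time gave 2 to 6 pathway probes higher and 4 to 7 lower. Over all 1648 probes it gave 133 to 228 higher and 214 to 307 lower. It moved Ece1 between -1.28 and -1.07 and Avpr1a between -0.98 and -0.74. The causes were not tested. Centring on named probes or within print blocks moved none of the 8 member values by more than its residual SD.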
